A study of Mus musculus with 128 samples.

Results

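The genes described here are 34 genes of the brain's blood vessels, 30 of them markers of endothelial cells and 4 of pericytes, among the 21225 probe sets of the array. They were taken by name from a list of vascular genes, and every one of the 34 had a probe set in all tables. By role they were 12 endothelial receptors and signals (Kdr, Flt1, Tek, Tie1, Eng, Ptprb, Robo4, Ramp2, Angpt2, Egfl7, Esm1, Nos3), 8 junction and adhesion genes (Cldn5, Ocln, Cdh5, Pecam1, Esam, Emcn, Icam2, Cd34), 5 transport genes of the blood-brain barrier (Slco1a4, Slco1c1, Slc2a1, Abcb1a, Mfsd2a), 2 transcription factors (Sox17, Sox18), 3 other endothelial genes (Ly6c1, Itm2a, Vwf) and 4 pericyte genes (Rgs5, Pdgfrb, Kcnj8, Abcc9). None of the 34 is in a triplicated segment of the models. Only Cldn5 is on chromosome 16, at 18776847 to 18778262 of GRCm38.p6, outside the segments.

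RNA was measured on 128 Affymetrix Mouse Gene 1.0 ST arrays of 65 mice from 3 models of Down syndrome, each trisomic (TS) for a part of chromosome 16 and compared with euploid (Eup) littermates. Ts1Cje and Dp(16)1/Yey (Dp16) males had been crossed with C57Bl/6J females by the labels, while the study's methods also name C57BL/6N females, and Ts65Dn females with B6EiC3Sn.BLiAF1 males, so the Ts65Dn animals of both genotypes had a mixed background. Ts1Cje mice carry their extra segment on chromosome 12 and have lost 1 copy of a few genes there, Ts65Dn mice carry theirs on a small extra chromosome with some genes of chromosome 17, and Dp16 mice carry a duplication within chromosome 16. The E15.5 forebrain, of both sexes, was read in 5 TS and 5 Eup Ts1Cje, 6 TS and 7 Eup Ts65Dn, and 6 TS and 6 Eup Dp16 embryos. Cortex, hippocampus and cerebellum were read in 5 TS and 5 Eup males of each model at 6 to 7 months, and the same animals gave the 3 regions, so the regions of a model are not independent. No animal was treated.

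Brain capillaries are tubes of endothelial cells that tight junctions seal to one another and that pericytes wrap from outside. Together they form the blood-brain barrier, in which carriers such as Slc2a1 take in glucose and pumps such as Abcb1a return drugs to the blood. Vessel growth is driven mainly by VEGF acting on Kdr, and vessel stability by the angiopoietins acting on Tek, with Eng as a co-receptor for signals of the TGF-beta family.

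The cerebellar and embryonic marker lists separated the labelled tissues. On the scale of log2 signal minus the median of the same array, 5 cerebellar genes had a median of 5.17 to 5.47 in euploid cerebellum and -0.41 to -0.12 in the other adult regions, and 5 genes of the embryonic forebrain were at 2.06 to 3.33 at E15.5 and at 0.29 or below in adults. The 5 hippocampal genes were at 1.78 to 2.39 in hippocampus and at 0.28 to 0.37 in cortex, but at 1.38 to 1.43 in cerebellum, so this list set hippocampus apart from cortex more than from cerebellum. Of the 128 arrays, 7 stood apart from the median profile of their own table, with an SD of 0.304 to 0.470 against 0.083 to 0.285 for the other 121. They were Ts65Dn embryo TS01, Dp16 embryos Eup13 and TS10, Ts1Cje cortex of Eup347 and the repeated array of TS348, and Ts65Dn hippocampus of TS5 and TS18, and effects that rest on them are given with and without them where their size or call is described. The Ts1Cje embryonic table had array medians of 8.52 to 8.55 against 7.24 to 7.29 in the Ts65Dn embryonic table, so its levels are on another scale.

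The promoters of the 3 genes that the trisomy results turn on are shown first, to give the DNA in front of Kdr, which encodes the main VEGF receptor, of Eng, which encodes endoglin, and of Ly6c1, a surface protein of mouse endothelium. The sequences are from RefSeq on GRCm38.p6, from 250 bases before to 50 after a transcript start, and capitals mark AGGAAG or its reverse complement CTTCCT, a core that ETS factors of endothelial cells bind. The windows are chr5:75978406-75978705 on the minus strand for Kdr, chr2:32646345-32646644 on the plus strand for Eng, and chr15:75048788-75049087 on the minus strand for the first listed start of Ly6c1.
Kdr: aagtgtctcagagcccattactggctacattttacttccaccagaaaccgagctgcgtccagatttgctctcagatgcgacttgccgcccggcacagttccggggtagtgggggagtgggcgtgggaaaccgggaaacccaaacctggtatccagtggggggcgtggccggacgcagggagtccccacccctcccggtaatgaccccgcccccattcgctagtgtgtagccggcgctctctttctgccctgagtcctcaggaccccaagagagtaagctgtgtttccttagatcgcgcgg
Eng: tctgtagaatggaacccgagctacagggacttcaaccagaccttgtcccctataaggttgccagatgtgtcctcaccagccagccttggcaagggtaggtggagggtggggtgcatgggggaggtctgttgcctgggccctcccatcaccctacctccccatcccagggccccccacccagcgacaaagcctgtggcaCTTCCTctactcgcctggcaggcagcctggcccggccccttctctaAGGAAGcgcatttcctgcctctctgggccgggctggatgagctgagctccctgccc
Ly6c1: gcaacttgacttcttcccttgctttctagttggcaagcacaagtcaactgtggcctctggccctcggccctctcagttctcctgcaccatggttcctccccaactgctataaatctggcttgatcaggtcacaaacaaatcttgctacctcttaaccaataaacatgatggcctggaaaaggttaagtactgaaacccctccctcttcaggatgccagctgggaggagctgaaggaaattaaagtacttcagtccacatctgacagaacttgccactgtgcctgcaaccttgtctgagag
The Eng window held 2 matches, and the windows of Kdr and Ly6c1 shown here held 0. Another listed window of Ly6c1, not shown, did hold the motif. A window was listed for 22 of the 34 genes, 26 windows in all, and 13 of the 26 (50%) held the motif on either strand against 35.4% of the 32851 windows of all genes. A SOX core, ACAAAG or its reverse complement CTTTGT, was in 6 of the 26 (23.1%) against 18.7% of all windows. These are counts of letters, not of bound sites. Angpt2, Cdh5, Esam, Icam2, Nos3, Pdgfrb, Pecam1, Ptprb, Ramp2, Sox17, Sox18 and Vwf were not in the table of windows.

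Each model was compared with its own littermates in each tissue, which asks whether vascular genes differ between trisomic and euploid brains. Over the 12 comparisons, 2 of 408 fits of the 34 genes were DEX, that is below a Benjamini-Hochberg FDR of 10% over all 254700 P values of limma. They were Ly6c1 in Ts1Cje hippocampus and Kdr in Ts65Dn cortex, both higher in trisomic mice. At an unadjusted P under 0.05, 34 of the 408 were higher (8.33%, against 3.17% of all fits) and 10 were lower (2.45%, against 3.06%). Of these, 33 higher and 7 lower were among the 9 adult comparisons, and the 3 adult Ts65Dn comparisons held 19 higher and 0 lower. In all, 22 genes passed the unadjusted limit somewhere with all arrays and 12 did not (Tie1, Ptprb, Robo4, Angpt2, Egfl7, Esm1, Cldn5, Ocln, Esam, Icam2, Itm2a and Pdgfrb). In bulk tissue, fewer cells of a type and less RNA per cell cannot be told apart.

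**Figure D1:**
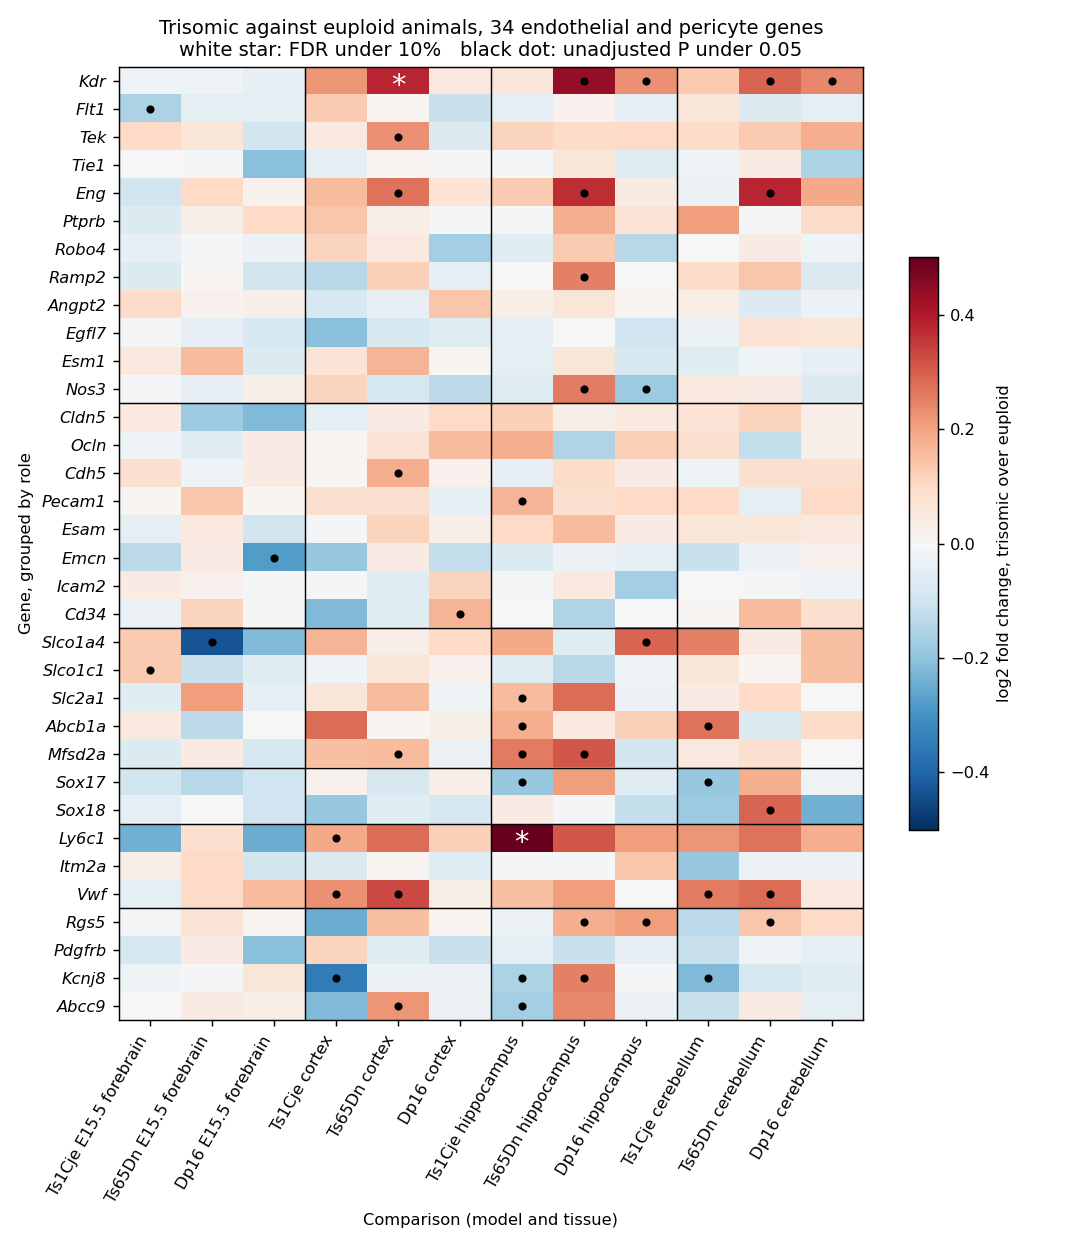
Log2 fold change, TS against Eup, of the 34 vascular genes (rows, by role) in the 12 comparisons (columns), as a colour scale with red for higher in TS. White stars mark the 2 DEX results and black dots an unadjusted P under 0.05, and the 19 marks in the adult Ts65Dn columns all lie on red cells.

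The difference of Kdr, TS minus Eup on the log2 scale, was 0.05 to 0.44 in the 9 adult comparisons and -0.04 to -0.02 in the 3 embryonic ones, and it passed the unadjusted limit in the 3 Ts65Dn regions and in 2 of Dp16. In Ts65Dn cortex its log2 signals were 7.34, 7.38, 7.44, 7.44 and 7.66 in the 5 TS mice and 6.99, 7.01, 7.04, 7.12 and 7.21 in the 5 Eup mice. Every TS mouse was above every Eup mouse, and the difference was 0.38 (1.3-fold, SE 0.072, FDR 0.0908). It was no longer DEX when any 1 of 8 of the 10 mice was left out, although its size stayed at 0.33 to 0.42. In hippocampus of the same mice Kdr was at 7.03, 7.19, 7.26, 7.33 and 7.38 in TS and 6.61, 6.68, 6.71, 6.90 and 7.08 in Eup. The groups overlapped by TS5 and Eup6, and the difference was 0.44 (SE 0.108, FDR 0.332), and 0.46 without the arrays of TS5 and TS18. Cerebellum gave 7.07, 7.12, 7.15, 7.34 and 7.44 in TS against 6.84, 6.84, 6.96, 7.00 and 7.03 in Eup, with no overlap and a difference of 0.29 (SE 0.080, FDR 0.464).

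In the other models Kdr was higher at an unadjusted P in 2 Dp16 regions. Dp16 hippocampus had 7.33, 7.37, 7.41, 7.51 and 7.59 in TS and 7.05, 7.12, 7.24, 7.31 and 7.37 in Eup, a difference of 0.23 (FDR 0.676) with groups that overlapped. In Dp16 cerebellum the TS mice were at 6.99, 7.02, 7.02, 7.02 and 7.14 and the Eup mice at 6.51, 6.74, 6.81, 6.97 and 6.98. The groups did not overlap, the difference was 0.24 (FDR 0.736), and it missed the limit without Eup263 or without TS278. In Ts1Cje the adult differences of Kdr were 0.22 in cortex (0.09 without the arrays that stood apart), 0.06 in hippocampus and 0.13 in cerebellum, with P from 0.136 to 0.356, and Eup347, whose cortex array stood apart, was the lowest cortex value at 6.11.

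Eng, which encodes endoglin, was higher in all 3 adult regions of Ts65Dn. Cortex read 8.44, 8.50, 8.58, 8.61 and 8.66 in TS and 8.09, 8.30, 8.33, 8.35 and 8.36 in Eup, a difference of 0.27 (1.21-fold, SE 0.067, FDR 0.348). In hippocampus the TS mice read 8.06, 8.12, 8.21, 8.22 and 8.51 against 7.75, 7.77, 7.82, 7.86 and 8.06 in Eup, a difference of 0.37 (SE 0.102, FDR 0.449). The lowest TS and the highest Eup value there were equal to 2 decimals, and the difference was 0.31 without the arrays of TS5 and TS18. Cerebellum read 8.07, 8.16, 8.36, 8.39 and 8.40 in TS and 7.75, 7.84, 7.88, 7.98 and 8.04 in Eup, a difference of 0.38 (SE 0.082, FDR 0.188). All TS mice were above all Eup mice in cortex and cerebellum, yet Eng was not DEX in any region. In the adult Ts1Cje and Dp16 comparisons Eng differed by -0.03 to 0.19 with P of 0.115 or more.

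**Figure D2:**
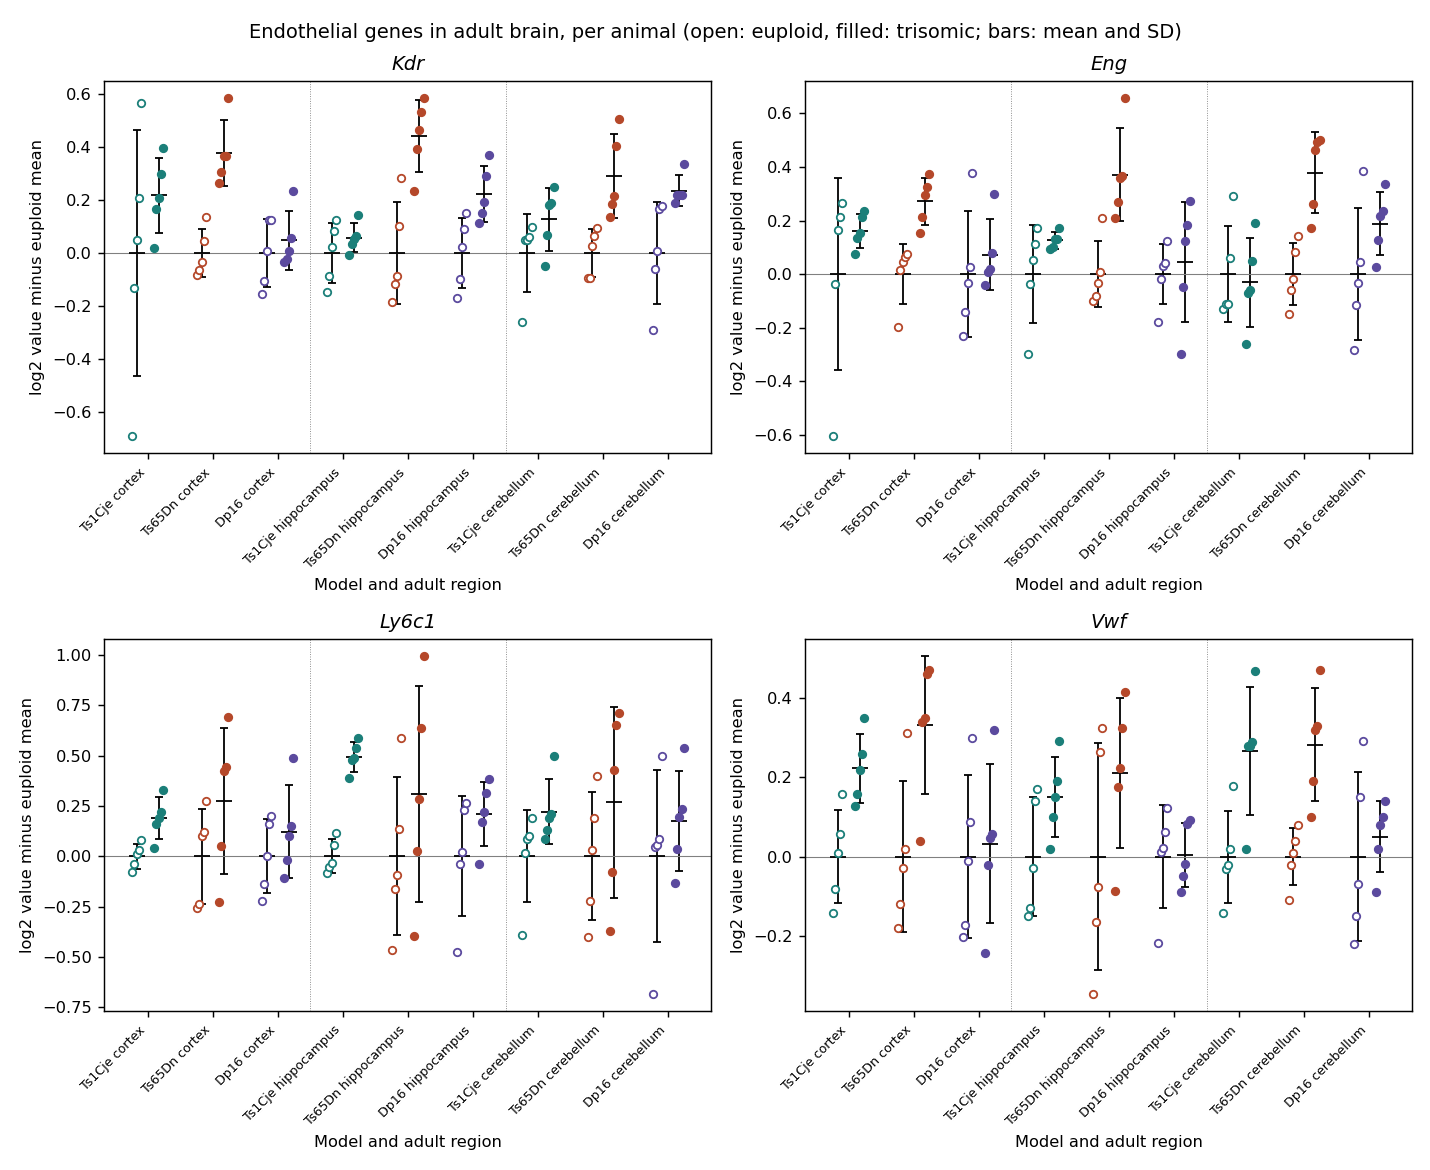
Log2 signal minus the euploid mean of the same comparison (y axis) for Kdr, Eng, Ly6c1 and Vwf in the 9 adult comparisons (x axis), with open points for Eup mice, filled points for TS mice, and bars for mean and SD. Kdr and Eng sit higher in the Ts65Dn TS mice, and Ly6c1 in Ts1Cje hippocampus has all TS mice above all Eup mice, 0.50 higher on average.

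Ly6c1, a surface marker of brain endothelium in mice, gave the lowest P of the 34 genes. In Ts1Cje hippocampus it read 9.56, 9.65, 9.66, 9.71 and 9.76 in TS and 9.09, 9.12, 9.14, 9.23 and 9.29 in Eup. The groups were apart, the difference was 0.50 (1.41-fold, SE 0.056, FDR 0.00276), and it stayed DEX with any 1 mouse left out, at 0.47 to 0.53. The cortex of the same mice read 9.49, 9.61, 9.64, 9.67 and 9.78 in TS and 9.37, 9.41, 9.46, 9.48 and 9.53 in Eup. These groups overlapped, with a difference of 0.19 (FDR 0.774), and 0.27 without the 2 arrays that stood apart. Leaving out any 1 of 6 of these mice lost the unadjusted limit in cortex. Ts1Cje cerebellum differed by 0.22 (FDR 0.812). Ly6c1 was above 0 in the other 6 adult comparisons too, by 0.12 to 0.31 with P of 0.111 or more, and the spread was widest in Ts65Dn hippocampus, from 8.55 in TS5 to 9.94 in TS18, both of which stood apart. Its near-identical neighbour Ly6c2 can share probes with it, so the signal may hold both genes.

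Vwf, the clotting factor that endothelial cells store and release, was at or above 0 in all 9 adult comparisons, by 0.00 to 0.33. In Ts65Dn cerebellum it read 6.75, 6.84, 6.97, 6.98 and 7.12 in TS and 6.54, 6.63, 6.66, 6.69 and 6.73 in Eup, apart, with a difference of 0.28 (SE 0.074, FDR 0.409). In Ts65Dn cortex it read 6.66, 6.96, 6.97, 7.08 and 7.09 against 6.44, 6.50, 6.59, 6.64 and 6.93, a difference of 0.33 (FDR 0.586) with overlap by TS21 and Eup17. Both of these Ts65Dn differences stayed past the unadjusted limit with any 1 mouse left out. Ts1Cje cerebellum read 6.90, 7.16, 7.16, 7.17 and 7.35 in TS against 6.74, 6.85, 6.86, 6.90 and 7.06 in Eup, a difference of 0.26 (FDR 0.628) with overlap. Ts1Cje cortex differed by 0.23 (FDR 0.722), which was 0.16 (FDR 0.689) without the arrays that stood apart and then missed the unadjusted limit.

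Mfsd2a, the carrier of docosahexaenoic acid across the barrier, was higher at an unadjusted P in 3 comparisons. In Ts1Cje hippocampus it read 8.69, 8.73, 8.74, 8.81 and 9.08 in TS and 8.48, 8.50, 8.51, 8.59 and 8.66 in Eup, with no overlap and a difference of 0.26 (SE 0.073, FDR 0.486). Ts65Dn hippocampus read 8.23, 8.30, 8.41, 8.69 and 9.02 in TS and 8.12, 8.16, 8.21, 8.30 and 8.34 in Eup, a difference of 0.31 (FDR 0.790), 0.24 without TS5 and TS18. Ts65Dn cortex read 8.54, 8.66, 8.69, 8.85 and 8.86 against 8.45, 8.56, 8.57, 8.61 and 8.62, a difference of 0.16 (FDR 0.786). In both Ts65Dn regions the groups overlapped and leaving out any 1 of 6 mice lost the unadjusted limit. In the 3 Dp16 adult regions Mfsd2a differed by -0.09 to 0.00.

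The pericyte genes did not move alike. Kcnj8 and Abcc9, neighbours on chromosome 6, encode the pore and the regulatory subunit of one ATP-sensitive potassium channel of pericytes. Kcnj8 was lower in Ts1Cje cortex, at 6.71, 6.74, 6.81, 6.86 and 6.88 in TS against 6.94, 7.01, 7.08, 7.23 and 7.50 in Eup. All TS mice were below all Eup mice, with a difference of -0.35 (SE 0.106, FDR 0.568), and -0.26 without the 2 arrays that stood apart, of which Eup347 had the highest value. Kcnj8 was also lower in Ts1Cje cerebellum, at 6.57, 6.67, 6.69, 6.71 and 6.90 in TS against 6.71, 6.81, 6.86, 7.12 and 7.14 in Eup (-0.22, FDR 0.775). In Ts1Cje hippocampus it was at 6.48, 6.56, 6.62, 6.65 and 6.85 in TS against 6.68, 6.78, 6.80, 6.80 and 6.89 in Eup (-0.16, FDR 0.784). Groups overlapped in both of these regions, where leaving out most single mice lost the unadjusted limit.

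Kcnj8 was higher in Ts65Dn hippocampus, at 6.27, 6.49, 6.52, 6.58 and 6.66 in TS and 6.04, 6.22, 6.28, 6.35 and 6.35 in Eup. The groups overlapped by TS21, and the difference of 0.25 (FDR 0.737) was 0.21 (FDR 0.688) without TS5 and TS18, past the limit no longer. Abcc9 was lower in Ts1Cje hippocampus, at 6.67, 6.71, 6.71, 6.72 and 6.82 in TS and 6.82, 6.84, 6.84, 6.99 and 7.00 in Eup, a difference of -0.17 (SE 0.054, FDR 0.605) in which the groups met at 6.82. In Ts1Cje cortex Abcc9 differed by -0.22 (FDR 0.856), and by -0.36 (FDR 0.304) without the arrays that stood apart. In Ts65Dn cortex Abcc9 was higher, at 6.83, 6.87, 6.89, 6.94 and 6.94 in TS and 6.55, 6.69, 6.69, 6.70 and 6.73 in Eup. These groups were apart by 0.22 (SE 0.054, FDR 0.337).

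Rgs5, a G-protein regulator that marks pericytes, was higher at an unadjusted P in 3 comparisons. It read 9.67, 9.68, 9.70, 9.72 and 9.75 in TS and 9.38, 9.51, 9.56, 9.65 and 9.68 in Eup in Ts65Dn cerebellum (0.14, FDR 0.788). Ts65Dn hippocampus read 9.19, 9.29, 9.31, 9.44 and 9.48 in TS and 9.09, 9.11, 9.12, 9.21 and 9.26 in Eup (0.18, FDR 0.80), and 0.16 with FDR 0.710 without TS5 and TS18, past the limit no longer. Dp16 hippocampus read 9.74, 9.79, 9.97, 9.99 and 10.12 in TS and 9.56, 9.66, 9.77, 9.77 and 9.82 in Eup (0.21, FDR 0.749). The groups of Rgs5 overlapped in each of the 3. The unadjusted limit was lost when any 1 of 8 of the 10 mice was left out in Ts65Dn cerebellum, of 7 in Ts65Dn hippocampus and of 5 in Dp16 hippocampus, and in Ts65Dn hippocampus also without TS5 and TS18 together (0.16, FDR 0.710). In Ts1Cje cortex Rgs5 differed by -0.25 (FDR 0.804), and by -0.17 without the arrays that stood apart. Pdgfrb, the PDGF receptor through which pericytes are recruited, ranged from -0.21 to 0.11 over the 12 comparisons with P of 0.0974 or more, and in Ts1Cje cortex it went from 0.11 to -0.08 without the arrays that stood apart.

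**Figure D3:**
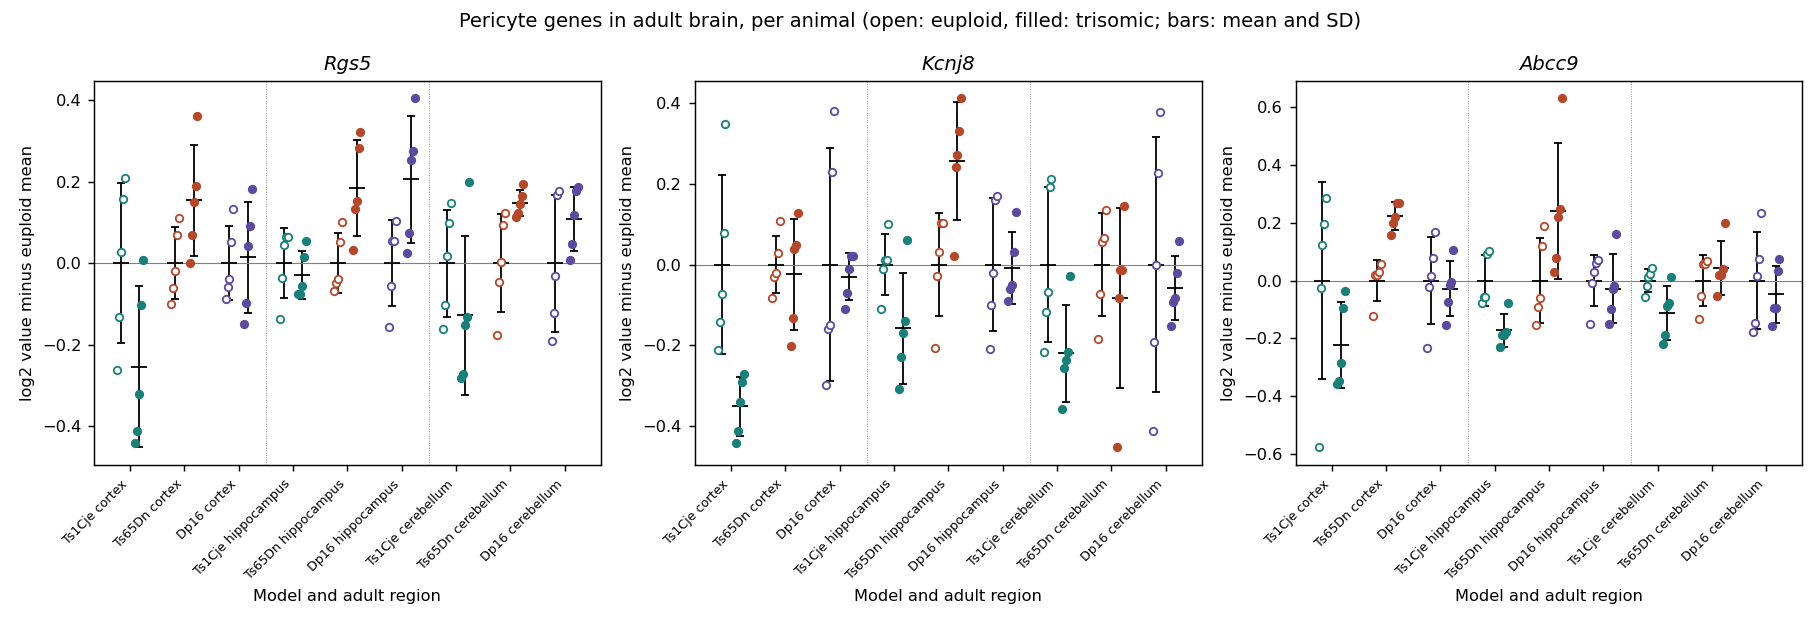
Log2 signal minus the euploid mean of the same comparison (y axis) for Rgs5, Kcnj8 and Abcc9 in the 9 adult comparisons (x axis), with open points for Eup mice, filled points for TS mice, and bars for mean and SD. Kcnj8 lies lower in the TS mice of Ts1Cje cortex (-0.35) and Abcc9 higher in those of Ts65Dn cortex (0.22), with groups apart in both.

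Read by tissue, the 34 genes stood as follows, each count with all arrays beside the share of all probe sets. Counts without the arrays that stood apart have no such share beside them. In Ts65Dn cortex 1 gene was DEX (all probe sets 0.349%), and 7 were higher at an unadjusted P (3.33%) and 0 lower (2.74%). Besides those already described they included Tek, the angiopoietin receptor (0.23, SE 0.059, FDR 0.357), whose groups met at 7.25, and Cdh5, the adherens junction cadherin (0.18, FDR 0.703). Ts65Dn hippocampus had 0 DEX (0.132%), 7 higher (3.48%) and 0 lower (1.22%), among them Ramp2, a co-receptor for adrenomedullin (0.25, FDR 0.706), and Nos3, the endothelial nitric oxide synthase (0.26, FDR 0.572), with Nos3 at 6.62 to 6.86 in TS and 6.36 to 6.53 in Eup. Without TS5 and TS18, Ramp2 differed by 0.26 and Nos3 by 0.28, and the count was 6 higher, with Slc2a1 in and Rgs5 and Kcnj8 out. All probe sets there had a median difference of 0.03, and the 34 genes of 0.08. Ts65Dn cerebellum had 0 DEX (0.297%), 5 higher (4.35%) and 0 lower (2.52%), including Sox18, a SOX factor of vessel formation (0.29, FDR 0.781).

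Ts1Cje hippocampus had 1 DEX gene (0.316%), 5 higher (4.19%) and 3 lower (6.11%). Pecam1, an adhesion protein of endothelial contacts, was at 7.21 to 7.31 in TS and 6.94 to 7.17 in Eup (0.17, FDR 0.598), and the carriers Slc2a1 (0.16, FDR 0.740) and Abcb1a (0.18, FDR 0.775) were higher with overlap. Sox17, a SOX factor of arteries and the barrier, was lower in hippocampus (-0.19, FDR 0.598) and in cerebellum (-0.19, FDR 0.727). Ts1Cje cerebellum had 0 DEX (0.429%), 2 higher (3.62%), Vwf and Abcb1a (0.27, FDR 0.785), and 2 lower (5.44%), Sox17 and Kcnj8. Ts1Cje cortex had 0 DEX (0.0424%), 2 higher (1.2%) and 1 lower (1.68%), and 1 higher and 2 lower without the arrays that stood apart. In the adult Ts1Cje regions the share of the 34 genes that was lower at the unadjusted limit was near that of all probe sets.

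Dp16 cortex had 0 DEX (0.00942%), 1 higher (2.04%), the sialomucin Cd34 (0.17, FDR 0.792), and 0 lower (2.83%). Dp16 hippocampus had 0 DEX (0.0660%), 3 higher (5.36%) and 1 lower (4.72%), with Slco1a4, an organic anion carrier, higher (0.29, FDR 0.683) and Nos3 lower (-0.18, FDR 0.703). Dp16 cerebellum had 0 DEX (0.0188%), 1 higher (1.88%), which was Kdr, and 0 lower (3.12%).

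The embryonic forebrains, with all arrays, held at most 1 such gene in either direction, counts near the share of all probe sets. Ts1Cje had 0 DEX (0.259%), 1 higher (2.79%), the thyroxine carrier Slco1c1 (0.13, FDR 0.778), and 1 lower (1.60%), the VEGF receptor Flt1 (-0.16, FDR 0.719). Ts65Dn had 0 DEX (0.264%), 0 higher (2.45%) and 1 lower (2.29%), Slco1a4, at 4.21 to 5.60 in 6 TS and 5.27 to 5.89 in 7 Eup embryos (-0.43, FDR 0.792), and -0.49 without TS01. Dp16 had 0 DEX (0.0895%), 0 higher (3.41%) and 1 lower (2.51%), Emcn, a sialoglycoprotein of capillary endothelium (-0.28, FDR 0.658). Without Eup13 and TS10, Dp16 had 3 lower (Tie1 -0.22, Esam -0.17, Emcn -0.18) and Vwf higher (0.17). No share of all probe sets is given for this setting. Over the 12 comparisons the median difference of the 34 genes was -0.05 to 0.08.

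Whether an effect differs between models, regions or stages was tested on the difference itself, and with all arrays no such difference of the 34 genes passed an FDR of 10%. Between models, 0 of 408 passed (0.0275% of all tests did) and 30 had an unadjusted P under 0.05 (5.04% of all tests). Without the arrays that stood apart 32 did (6.98% of all tests), and 1 passed the FDR. This was Abcc9 in cortex, where Ts1Cje minus Ts65Dn was -0.58 (FDR 0.0367), against -0.45 with all arrays. No share of all tests past the FDR is given without those arrays. The 1 call is therefore not read as a result about the 34 genes. With all arrays, the values were as follows. The smallest P was for Nos3 in hippocampus, where the effect in Ts65Dn exceeded that in Dp16 by 0.44 (SE 0.094, FDR 0.245) and that in Ts1Cje by 0.32, since Ts1Cje minus Ts65Dn was -0.32 (FDR 0.650). For Kcnj8 in hippocampus, Ts1Cje minus Ts65Dn was -0.41 (FDR 0.771), and for Abcc9 also -0.41 (FDR 0.885). For Kdr, Ts65Dn minus Dp16 was 0.33 in cortex (FDR 0.903) and Ts1Cje minus Ts65Dn was -0.38 in hippocampus (FDR 0.890). For Eng in cerebellum, Ts1Cje minus Ts65Dn was -0.41 (FDR 0.890). The hippocampal differences here include TS5 and TS18 of Ts65Dn and are not given without them. The Ts65Dn effect in hippocampus without these arrays was 0.11 for Abcc9, against 0.24, and 0.21 for Kcnj8, against 0.25. It was 0.28 for Nos3, against 0.26, and 0.46 for Kdr, against 0.44.

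Between the adult regions of the same mice, 0 of 306 differences passed (0.00105% of all tests) and 7 had an unadjusted P under 0.05 (4.14% of all tests), with the difference taken within each mouse. Without this replicate block, 9 did (3.57%). The smallest P was that of Ly6c1 in Ts1Cje, where the effect in hippocampus exceeded that in cortex by 0.31 (SE 0.095, FDR 1.000), and by 0.24 without the arrays that stood apart. The effect on Nos3 in Ts65Dn was larger in hippocampus than in cortex by 0.34 (FDR 1.000), and that on Kcnj8 by 0.28 (FDR 1.000). Without TS5 and TS18 these were 0.41 and 0.19, and that of Kcnj8 was no longer past the unadjusted limit. A higher level of Ly6c1 in 1 region and not in another is therefore not shown to be a difference between regions.

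Between adult cortex and E15.5 forebrain, a comparison added after the data had been seen, 0 of 102 differences passed (0.00% of all tests) and 3 had an unadjusted P under 0.05 (4.28% of all tests). Kdr in Ts65Dn differed by 0.40 (SE 0.150, FDR 0.990), Kcnj8 in Ts1Cje by -0.34 (FDR 0.990) and Vwf in Ts1Cje by 0.28 (FDR 0.990). Without the arrays that stood apart they were 0.46, -0.25 and 0.21, Vwf was not past the unadjusted limit, and 9 of the 102 were (6.09% of all tests). Adult cortex was set against embryonic forebrain here, so stage and tissue cannot be told apart. The adults were males and the embryos of both sexes, and sex was not in the fit.

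**Figure D4:**
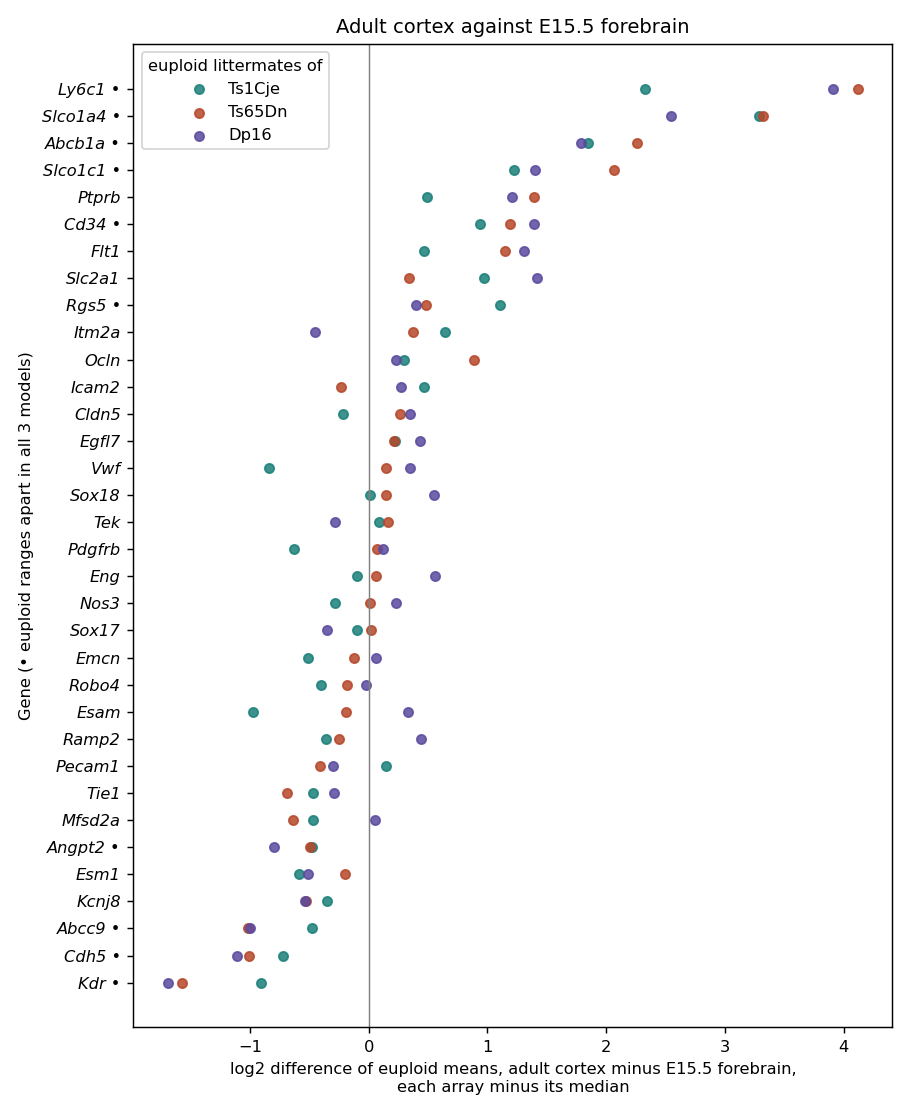
Log2 difference of euploid means, adult cortex minus E15.5 forebrain, each array minus its median (x axis), for the 34 genes (y axis) in order of the median over models, with 1 point per model and a dot beside genes whose euploid ranges were apart in all 3 models. Ly6c1 (median 3.91) and Slco1a4 (3.29) are at the high end and Kdr (-1.57) is at the low end.

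Levels of the genes in euploid mice were also compared between stages. They are described with no test, since each table was normalized on its own, and each is log2 signal minus the median of its own array. The ranges of adult cortex and E15.5 forebrain were apart in the same direction in all 3 models for 6 genes that were higher in cortex (17.2% of all probe sets were) and 4 that were lower (12.5%), counts near the share of all probe sets. Of the 5 transport genes of the barrier, 3 were among the higher ones. Slco1a4 was higher in cortex by 3.29 in Ts1Cje, 3.32 in Ts65Dn and 2.55 in Dp16, Abcb1a by 1.85, 2.26 and 1.79, and Slco1c1 by 1.22, 2.07 and 1.40. The glucose carrier Slc2a1 had overlapping ranges and a median difference of 0.97, which was 0.15 with all arrays normalized together, and Mfsd2a was at -0.47. Ly6c1 differed by 2.33, 4.12 and 3.91, Cd34 by 0.94, 1.19 and 1.39, and Rgs5 by 1.11, 0.48 and 0.40.

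The 4 genes lower in adult cortex were a VEGF receptor, a junction cadherin, a potassium channel subunit of pericytes and an angiopoietin. Kdr differed by -0.91 in Ts1Cje, -1.57 in Ts65Dn and -1.69 in Dp16, Cdh5 by -0.72, -1.01 and -1.11, Abcc9 by -0.48, -1.02 and -1.0, and Angpt2, the ligand that loosens vessels, by -0.48, -0.49 and -0.80. The phosphatase Ptprb (median difference 1.21) was also among the 5 highest, and Kcnj8 (-0.53) and the secreted proteoglycan Esm1 (-0.51) among the 5 lowest after these, with ranges that overlapped in some model. Kdr was at 1.05 ± 0.05 (SD, n = 5) in Ts1Cje, 2.01 ± 0.18 (n = 7) in Ts65Dn and 2.17 ± 0.13 (n = 6) in Dp16 forebrain, and at 0.14 ± 0.47, 0.44 ± 0.10 and 0.48 ± 0.13 (n = 5 each) in cortex. The SD of 0.47 includes Eup347, whose array stood apart. With all arrays normalized together, 4 genes were higher (14.4% of all probe sets) and 4 lower (14.6%), and Esm1 was at -0.20. Without the arrays that stood apart 8 were higher (19.9%) and 6 lower (14.4%).

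**Figure D5:**
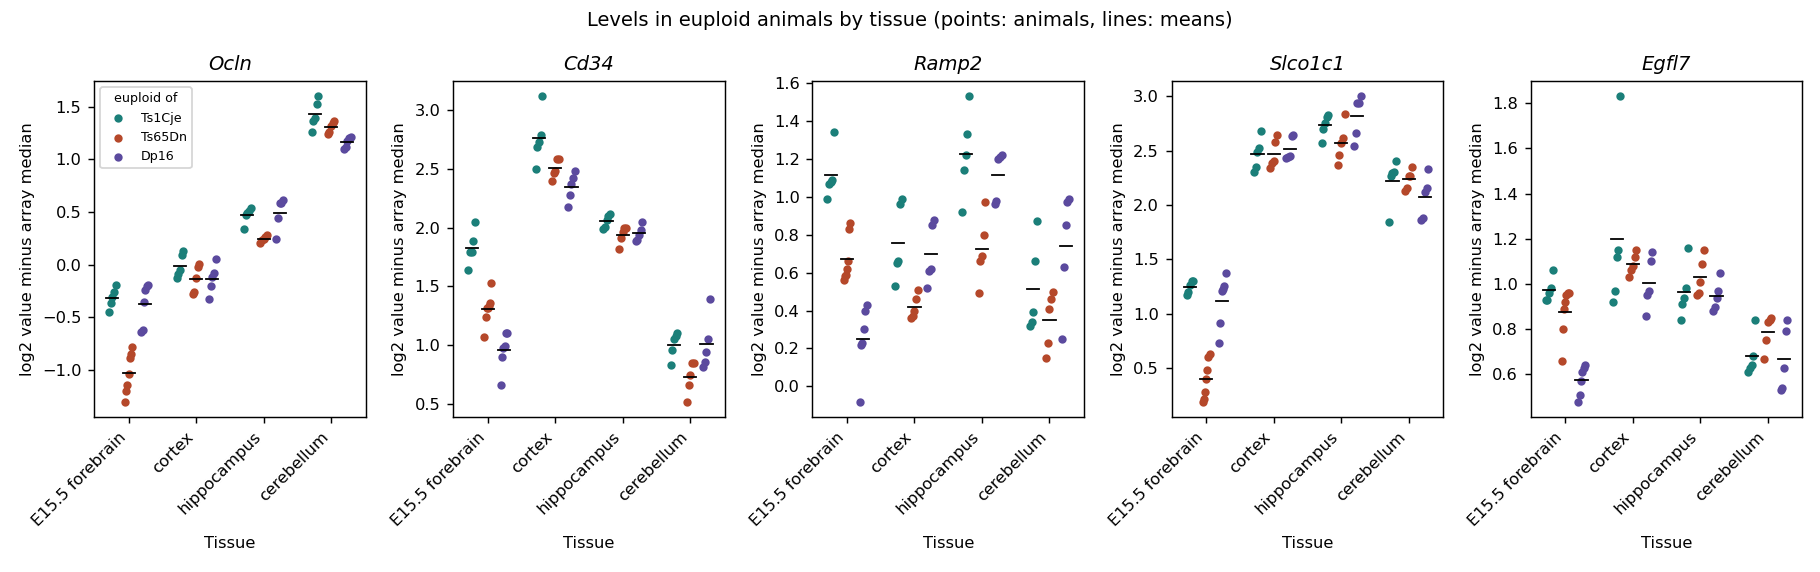
Log2 signal minus array median (y axis) of Ocln, Cd34, Ramp2, Slco1c1 and Egfl7 by tissue (x axis), with 1 point per euploid mouse, colours for the 3 models and lines for means. Ocln steps up and Cd34 steps down from cortex to hippocampus to cerebellum in each model.

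Among adult regions the vessel genes stood mostly at like levels, with 2 clear exceptions of opposite order. Ocln, the tight junction protein occludin, was at -0.01 ± 0.11, -0.14 ± 0.13 and -0.14 ± 0.14 in cortex of Ts1Cje, Ts65Dn and Dp16, at 0.47 ± 0.08, 0.24 ± 0.03 and 0.49 ± 0.16 in hippocampus, and at 1.43 ± 0.14, 1.31 ± 0.05 and 1.16 ± 0.05 in cerebellum (SD, n = 5 each). Cd34 was at 2.77 ± 0.22, 2.51 ± 0.08 and 2.35 ± 0.12 in cortex, 2.06 ± 0.06, 1.94 ± 0.08 and 1.95 ± 0.06 in hippocampus, and 1.00 ± 0.11, 0.72 ± 0.14 and 1.01 ± 0.23 in cerebellum. For both genes the euploid ranges of neighbouring regions were apart in all 3 models.

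Few genes had ranges apart between regions. Against cortex, hippocampus had 1 gene higher, Ocln (1.66% of all probe sets), and 1 lower, Cd34 (2.28%). Ramp2 (median difference 0.42), Slco1c1 (0.27), Angpt2 (0.17) and Vwf (0.11) followed Ocln, and Ly6c1 (-0.27), Kcnj8 (-0.26), Itm2a (-0.22) and Ptprb (-0.19) followed Cd34, all with ranges that overlapped in at least 1 model. This order depended on the scale, since with all arrays normalized together Itm2a was at 0.02, Ly6c1 at -0.10, Angpt2 at 0.08 and Cd34 at -0.36, against -0.57. Without the arrays that stood apart Itm2a was at -0.13. Against cortex, cerebellum had 1 higher, Ocln (8.10%), and 2 lower (7.85%), Cd34 and the secreted protein Egfl7 (-0.34). The next were Abcc9 (0.28), Angpt2 (0.16), Ly6c1 (0.16) and Icam2 (0.07) on the high side and Mfsd2a (-0.42), Eng (-0.37) and Pdgfrb (-0.25) on the low side. Against hippocampus, cerebellum had 1 higher, Ocln (10.4%), and 2 lower (8.65%), Cd34 and Slco1c1 (-0.52). Here Ly6c1 (0.39), Abcb1a (0.21), Cldn5 (0.20) and Slc2a1 (0.16) followed on the high side and Ramp2 (-0.38), Mfsd2a (-0.32) and Egfl7 (-0.28) on the low side, and Ly6c1 was at 0.16 with all arrays normalized together.

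The 34 genes were also read for whether they vary together between animals of the same group. Over 125 values of an animal in a tissue, as deviations from the group mean, the correlation of each gene with the mean of the other vascular genes had a median of 0.38, from 0.06 for Esm1 to 0.72 for Pecam1. It was above 0.5 for 11 genes, led by Pecam1, Eng (0.71), Tie1 (0.62), Kdr (0.61) and Cdh5 (0.60), and 1.37% of the other probe sets reached this against the endothelial mean. The values share arrays, tables and, in adults, mice, so they are a description only. Rgs5 (0.11) and Kcnj8 (0.07) followed the others least among the pericyte genes and Pdgfrb (0.59) most, and the endothelial and pericyte means had r = 0.57. By table the median was from 0.18 in Dp16 cortex and Ts1Cje cerebellum to 0.70 in Ts65Dn forebrain, and with each array centred on its median the overall value was 0.35. Without the 6 animals whose single array stood apart, 119 values gave a median of 0.37, but 6 genes above 0.5 in place of 11, with Pecam1 at 0.65, Eng at 0.60, Tie1 at 0.47, Kdr at 0.50 and Cdh5 at 0.54, and with Rgs5 at 0.32 and Kcnj8 at 0.28.

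Outside the list, the 10 probe sets most like the endothelial mean over the same 125 values were Ehd2 (r = 0.78), Timp3 (0.78), Adgre5 (0.76), Itih5 (0.75), Axl (0.73), Tgfbr2 (0.72), Anxa5 (0.71), Vtn (0.70), Pltp (0.70) and Cpt1a (0.69). Lists of other cell types followed the endothelial mean to different degrees. The r was 0.67 for 8 further pericyte markers, 0.60 for 6 meningeal and fibroblast genes, 0.47 for 5 smooth muscle genes, 0.36 for 5 astrocyte genes, -0.09 for 4 red cell genes and -0.16 for 5 neuronal genes. It was 0.25 for 6 choroid plexus, 0.22 for 5 oligodendrocyte and 0.21 for 6 microglial genes. The r values of this paragraph include the arrays that stood apart and are not given without them. The part of these other cell types in the results for the vascular genes was not tested.

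Some of these markers differed beside the vascular genes. The 8 further pericyte markers were lower in 7 of 96 fits at the unadjusted limit and higher in 0 (of all fits, 3.06% were lower and 3.17% higher), and lower in 9 without the arrays that stood apart, with Cspg4 in Ts1Cje cerebellum (-0.27, FDR 0.491) and Higd1b in Ts1Cje cortex (-0.35, FDR 0.538) at the lowest P. In Ts65Dn hippocampus, where Kdr and Eng were higher, 2 of 4 red cell genes were higher too, and the median level of the list was -1.06 to -0.44 in TS and -1.61 to -1.08 in Eup. In the same tissue the 6 choroid plexus genes had 0 past the unadjusted limit and a median difference of -0.84, with levels of -0.69 to 1.46 in TS and 0.94 to 1.68 in Eup. There TS18 had 5 neuronal genes at 3.91, with 5.12 to 5.53 in the other 9 mice, 5 oligodendrocyte genes at 4.54, with 3.52 to 3.89, and 5 cerebellar genes at 1.39, with -0.39 to 0.06. The oligodendrocyte genes had a median difference of 0.23 and 1 of 5 past the unadjusted limit. The marker calls and median differences of this tissue include TS5 and TS18, whose arrays stood apart, and are not given without them. The red cell level was -0.47 in TS5 and -0.98 in TS18, and the choroid plexus level 1.46 and -0.37. In Ts65Dn cortex 0 of 4 red cell genes passed, at -1.25 to -0.92 in TS and -1.51 to -0.93 in Eup, and in cerebellum 1 of 4, at -1.05 to -0.72 and -1.38 to -0.94. In Dp16 hippocampus 2 of 4 red cell genes were higher, with levels of -0.93 to -0.70 against -1.25 to -0.97. In Ts1Cje cerebellum the fibroblast gene Dcn was DEX (0.50, SE 0.067, FDR 0.00474).

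Of the other vascular pathways, those outside the triplicated segments had 1 DEX result in all. At the unadjusted limit, 3.17% of all fits were higher and 3.06% lower, beside which these counts are to be read. Of 10 VEGF and angiopoietin ligands and co-receptors, 9 fits of 120 were higher at the unadjusted limit, 6 lower and 0 DEX. The apelin gene Apln, a peptide of sprouting endothelium, made up 6 of the 9, in Ts65Dn forebrain (0.25, FDR 0.547), cortex (0.27, FDR 0.288), hippocampus (0.47, FDR 0.665, and 0.25 without TS5 and TS18) and cerebellum (0.18, FDR 0.724) and in Dp16 forebrain (0.16, FDR 0.788) and cortex (0.27, FDR 0.769). Of 12 genes of the Wnt7 and Norrin signal that builds the barrier, 3 of 144 fits were higher, 10 lower and 0 DEX, and the ligands Wnt7a and Wnt7b made up 7 of the 10, with Wnt7b at -0.27 in Ts1Cje cerebellum (FDR 0.452) and Wnt7a at -0.36 in Dp16 cerebellum (FDR 0.464).

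The remaining lists are given by count, to be read beside the 3.17% of all fits that were higher and 3.06% that were lower. The 8 Notch genes had 0 higher and 2 lower of 96 fits, lowest P for Jag1 in Ts1Cje hippocampus (-0.16, FDR 0.742), and the 7 tight junction partners 4 higher and 0 lower of 84, led by Lsr in Ts65Dn cerebellum (0.19, FDR 0.670). The 6 genes of pericyte recruitment had 1 higher and 1 lower of 72, with Pdgfb lower in Ts1Cje cortex (-0.28, FDR 0.465), and the 8 basement membrane genes 2 and 2 of 96, with Lamc1 lower in Ts1Cje hippocampus (-0.18, FDR 0.579). Of the 6 genes of endothelial inflammation, 4 of 72 fits were higher and Lcn2 was DEX in Ts1Cje cerebellum (0.69, SE 0.109, FDR 0.0177) and at 0.77 in Ts1Cje hippocampus (FDR 0.170). The 7 vascular genes that lie on the part of chromosome 16 that is triplicated in at least 1 model, which the 34 genes do not include, had 54 higher, 0 lower and 18 DEX of 84 fits. The DEX results were of Jam2, a junction adhesion protein (0.50 to 0.91 in Ts65Dn tissues and Dp16 forebrain), the ETS factor Ets2 (0.50 to 0.64), the calcineurin inhibitor Rcan1 (0.37 to 0.47) and the proteases Adamts1 (0.50 and 0.57) and Adamts5 (0.44). The lowest P was that of Ets2 in Ts1Cje hippocampus (0.55, SE 0.049, FDR 8.07e-04). Without the arrays that stood apart, higher and lower fits were 10 and 6 for VEGF and 4 and 10 for Wnt7 and Norrin. Notch had 0 and 3, tight junction partners 4 and 2, and pericyte recruitment 1 and 1. Basement membrane had 4 and 3, inflammation 6 and 0, and the triplicated genes 53 and 0, with 21 DEX. No share of all fits is given for this setting.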

How the data were processed

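The authors deposited log2 signals of Affymetrix Mouse Gene 1.0 ST arrays made by RMA, which subtracts background, quantile-normalizes the arrays and combines the probes of a probe set. Each model and tissue was normalized on its own, so levels across tables were described, not tested. Of 21225 probe sets, 20768 were named by Entrez number through RefSeq on GRCm38.p6 and 457 were not. Arrays have no sequencing depth, and their number limits the precision. P values set the difference between genotypes against the spread between animals, which the labels number separately.

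Each sample's group came from its title. The animal number there paired the 3 adult regions. Repeated arrays of 1 animal were averaged. The 12 comparisons were fitted by limma 3.58.1 in R 4.3.3, each on its own table with no covariate or filter, two-sided, with 1 Benjamini-Hochberg adjustment over all 254700 P values. Differences between regions were fitted on per-animal differences, and those between models or stages as contrasts of 4 groups. Simulated data were used to test the fits. Python 3.11.15 with numpy 2.4.6, pandas 2.3.3 and matplotlib 3.10.9 made tables and figures.

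The 34 genes and all lists were chosen with earlier results of these data known. Values in every animal were given for genes that were DEX anywhere or passed an unadjusted P of 0.05 in the same direction in 3 or more comparisons, then for those of lowest P until 8 were reached. For levels, the 5 highest and 5 lowest differences of each contrast were named, for likeness the 10 probe sets of highest Pearson r, and from the other lists genes that were DEX or had the lowest P. Other genes were named after their values were seen. Alternatives covered the methods' t-test, error moderation, adjustment, normalization, dim probe sets, array weights, technical repeats, sex, single animals and call limits. The omission of arrays that stand apart, at an SD over 0.3, from effects, differences, levels and correlations, and the stage contrast were added after seeing the data.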

Additional observations from a re-analysis of the deposited data

Results flagged for a closer look

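Of 76 groups of 5 to 7 animals that were examined, 5 had 1 animal whose distance from the others was large against the range of its group, and chance gives about 1 in 20 such groups. The median level of the 34 genes was 0.63 in Dp16 embryo Eup03 and 0.48 to 0.53 in the other 5 euploid embryos. It was 0.61 in Ts65Dn cortex of Eup17 and 0.44 to 0.49 in the other 4 euploid mice. Eng in Ts65Dn cortex was 8.09 in Eup16 and 8.30 to 8.36 in the other euploid mice, and Abcc9 there was 6.55 in Eup6 and 6.69 to 6.73 in the others. Kdr in Dp16 cerebellum was 7.14 in TS278 and 6.99 to 7.02 in the other trisomic mice. Eng and Abcc9 in Ts65Dn cortex stayed past an unadjusted P of 0.05 with any 1 mouse left out, at 0.22 to 0.30 and 0.19 to 0.24. Kdr in Dp16 cerebellum ranged from 0.16 to 0.28 and missed the limit without Eup263 or without TS278.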

How the results depend on the processing

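Among the effects past an unadjusted P of the genes given by animal, no direction reversed. Of 40 named level differences, 1 changed sign with all arrays normalized together, Itm2a in hippocampus against cortex (-0.22 to 0.02), 5 moved by over 1.5 times, and without the arrays that stood apart 1 did, Itm2a. Without those arrays 1 difference between models passed the FDR in place of 0, with no share of all tests beside it, and 9 between stages passed an unadjusted P in place of 3. The count of DEX genes, 2 in the main analysis, was 1 with the methods' t-test, with each array centred on its median, with array weights and at an FDR of 5%, and in each of these Ts65Dn cortex had 0 in place of 1. Ts65Dn cerebellum had 1 in place of 0, Eng, with an intensity trend and robust errors, with bright probe sets only and at an FDR of 20%. The count of genes lower at an unadjusted P, 10, became 19 with array weights. With the fold limits of the methods' MDG (above 1.2 or below 0.8) there were 13 higher in place of 34 and 2 lower. The counts with array weights and with these limits have no share of all probe sets beside them. They are not read as results about the 34 genes. With single animals left out, DEX genes ranged from 1 to 3 over the 12 comparisons, from 0 to 1 in Ts65Dn cortex (0 without Eup6, Eup8, Eup15, Eup16, TS4, TS5, TS9 or TS18) and from 0 to 1 in Ts65Dn cerebellum (1 without TS4), and region differences at an unadjusted P from 4 (without Eup6, Eup8, Eup15, TS4 or TS18 of Ts65Dn) to 14 (without Eup347 of Ts1Cje), against 7. Region differences past an FDR of 10% stayed at 0 with the replicate block removed, and 9 passed an unadjusted P. For the single genes named, 219 of the values under other settings kept their side of the unadjusted limit and 14 lost it, and with single animals left out 203 kept it and 57 lost it. For levels, the genes whose ranges were apart between adult cortex and forebrain were 9 higher (19.1% of all probe sets) and 5 lower (13.9%) in trisomic animals, against 6 and 4 in euploid animals.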
